A study of Mus musculus with 2 samples.

Results

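The members of the Ms4a family (membrane-spanning 4-domains, subfamily A) were followed across the leukocytes of brown adipose tissue (BAT). The 9 genes were taken by symbol: Ms4a1, Ms4a3, Ms4a4a, Ms4a4b, Ms4a4c, Ms4a6b, Ms4a6c, Ms4a6d and Ms4a7. They are 9 of the 32285 genes counted and 9 of the 19 genes whose symbols start with Ms4a. Ms4a proteins cross the membrane several times and sit beside other receptors of the leukocyte surface. The best known is Ms4a1, which is CD20, the B cell protein targeted by therapeutic antibodies. Ms4a2 is the beta chain of the high-affinity IgE receptor, Ms4a4b has been described as an adapter of the co-stimulatory receptor GITR in T cells, Ms4a4a acts with the glucan receptor Dectin-1 in macrophages, and Ms4a3 is known from granulocyte and monocyte progenitors of the bone marrow.

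The study compared BAT leukocytes of mice that lack the triglyceride lipase ATGL in adipocytes with those of control mice. Single-cell RNA was sequenced from 2 libraries of sorted CD45+, DAPI-negative (live) cells, 1 library per condition. Mice of both groups were male, on C57Bl/6, 16 weeks old by the labels (a legend of the study gives a younger age), and carried the same alleles, AdipoQ-CreERT2 and ATGLfl/fl. The AdipoΔ/Δ mice had received tamoxifen at 10 mg/ml, 200 µl per mouse, repeated over 1 week and followed by 2 weeks of rest, while control mice had received the vehicle. The adiponectin promoter drives the inducible Cre in adipocytes, so the sorted leukocytes keep their own ATGL gene, and how many mice gave cells to a library is not given in the sources used here. After filtering, 2279 control and 2016 AdipoΔ/Δ cells remained, with 10753113 and 11316418 UMIs (unique molecular identifiers, each counting 1 captured RNA molecule) and medians of 3678 and 3942 UMIs per cell. The libraries shared 4 cell barcodes.

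Cells were clustered without any Ms4a gene and named from markers of other genes, as "-like" classes. The 10 classes with at least 20 cells in each library were compared: B cell-like (262 control and 92 AdipoΔ/Δ cells), T cell-like (388 and 269), NK cell-like (206 and 173), neutrophil-like (314 and 173), dendritic cell-like (85 and 108), Ly6C high monocyte-like (369 and 174), Ly6C low monocyte-like (344 and 277), resident macrophage-like (58 and 118), matrix macrophage-like (49 and 180) and macrophage-like without a subset (80 and 209). Lipid-associated macrophage-like cells (13 and 89) were too few in the control library to compare and are given apart. Levels are CPM, the UMIs of a gene scaled to 1e6 summed UMIs of its class, with 95% Poisson intervals in brackets. Each UMI comes from a transcript's 3′ end, so levels were not divided by length, and no level of 1 member was set against that of another. Shares of cells with a UMI carry 95% Clopper-Pearson intervals. All intervals cover counting error only, and with 1 library per condition every difference between conditions is one between 2 libraries, with no test.

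The family lies in 1 cluster on chromosome 19. In GRCm38, the 19 Ms4a genes span chr19:10962293-11640851, which is 678.559 kb. Along it the members come in the order Ms4a1, Ms4a7, Ms4a4a, Ms4a4c, Ms4a4b, Ms4a6c, Ms4a6b, Ms4a6d and Ms4a3. Ms4a4b (chr19:11443553-11467055, plus strand) and Ms4a4c (chr19:11404770-11427246, plus strand) are neighbours, and 622 of 678 aligned bases of their coding sequences were identical (91.7%). The Ms4a6 genes formed the next closest group, at 85.4% for Ms4a6b and Ms4a6c, 81.2% for Ms4a6b and Ms4a6d and 79.0% for Ms4a6c and Ms4a6d. No other pair of members passed 68.3%.

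The 250 bases before the RefSeq start site are shown for both close pairs, because each pair shares most of its coding sequence and part of its upstream sequence while its members differ in the classes that hold them. The pairs were picked after the sequences were compared. Sequences come from RefSeq on GRCm38.p6, plus strand, written 5′ to 3′, and capitals mark the bases of the aligned stretch that differ from the partner or have no counterpart in it. Between Ms4a4c (chr19:11407411-11407660) and Ms4a4b (chr19:11443308-11443557), 114 of 127 aligned bases were identical (89.8%). Between Ms4a6c (chr19:11469118-11469367) and Ms4a6b (chr19:11518309-11518558), 152 of 170 were identical (89.4%).
Ms4a4c: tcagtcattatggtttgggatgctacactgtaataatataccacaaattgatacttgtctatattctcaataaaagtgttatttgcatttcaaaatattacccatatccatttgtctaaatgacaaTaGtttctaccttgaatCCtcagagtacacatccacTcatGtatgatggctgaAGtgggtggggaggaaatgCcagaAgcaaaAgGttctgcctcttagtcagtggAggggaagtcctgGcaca
Ms4a4b: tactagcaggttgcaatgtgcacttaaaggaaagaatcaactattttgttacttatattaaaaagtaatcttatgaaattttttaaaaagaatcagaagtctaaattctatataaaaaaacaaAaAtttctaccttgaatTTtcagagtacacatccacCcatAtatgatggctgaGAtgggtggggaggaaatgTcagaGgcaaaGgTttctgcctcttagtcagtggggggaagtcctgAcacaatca
Ms4a6c: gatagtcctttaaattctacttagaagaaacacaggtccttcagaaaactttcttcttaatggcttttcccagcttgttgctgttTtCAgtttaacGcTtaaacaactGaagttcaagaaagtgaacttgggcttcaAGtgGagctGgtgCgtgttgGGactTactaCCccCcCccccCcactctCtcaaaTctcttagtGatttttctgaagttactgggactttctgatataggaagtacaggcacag
Ms4a6b: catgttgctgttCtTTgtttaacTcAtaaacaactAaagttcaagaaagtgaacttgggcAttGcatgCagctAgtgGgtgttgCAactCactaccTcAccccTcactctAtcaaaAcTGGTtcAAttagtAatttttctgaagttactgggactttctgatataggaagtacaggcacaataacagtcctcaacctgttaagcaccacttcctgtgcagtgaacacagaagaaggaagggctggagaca
In the first pair, the shared stretch reaches up to the start site, and the farther bases did not align. RefSeq entries for this window were matched for 7 of the 9 members, all but Ms4a1 and Ms4a6d.

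Near-identical copies also bear on the counts. The reads were 55 bases long and came from transcript ends. Within the last 500 bases of the annotated transcripts, up to 14.8% of 55-base windows of Ms4a4c and 11.7% of those of Ms4a6c occurred in another gene as well, against at most 1.35% for Ms4a6b and 0 for Ms4a1, Ms4a3, Ms4a4a, Ms4a4b, Ms4a6d and Ms4a7. How reads from such windows were split is uncertain for Ms4a4c, Ms4a6b and Ms4a6c.

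A member was said to mark a class when its level there was at least 2 times that in the next class in both libraries, with at least 20 UMIs behind the highest level of each. Of the 9 members, 7 had enough UMIs, and only Ms4a1 met the rule, in B cell-like cells. Of all 5939 genes with enough UMIs, 14.6% met it, so the members' share lay near that of all genes. Among the classes compared, 6 members had their highest level in the same class in both libraries. Ms4a1 was highest in B cell-like cells, Ms4a4b in NK cell-like cells and Ms4a6b in T cell-like cells. Ms4a4c and Ms4a6c were highest in Ly6C high monocyte-like cells, and Ms4a7 in resident macrophage-like cells. Lipid-associated macrophage-like cells, which were not compared, held more Ms4a7 than resident ones in both libraries, as given below.

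**Figure D1:**
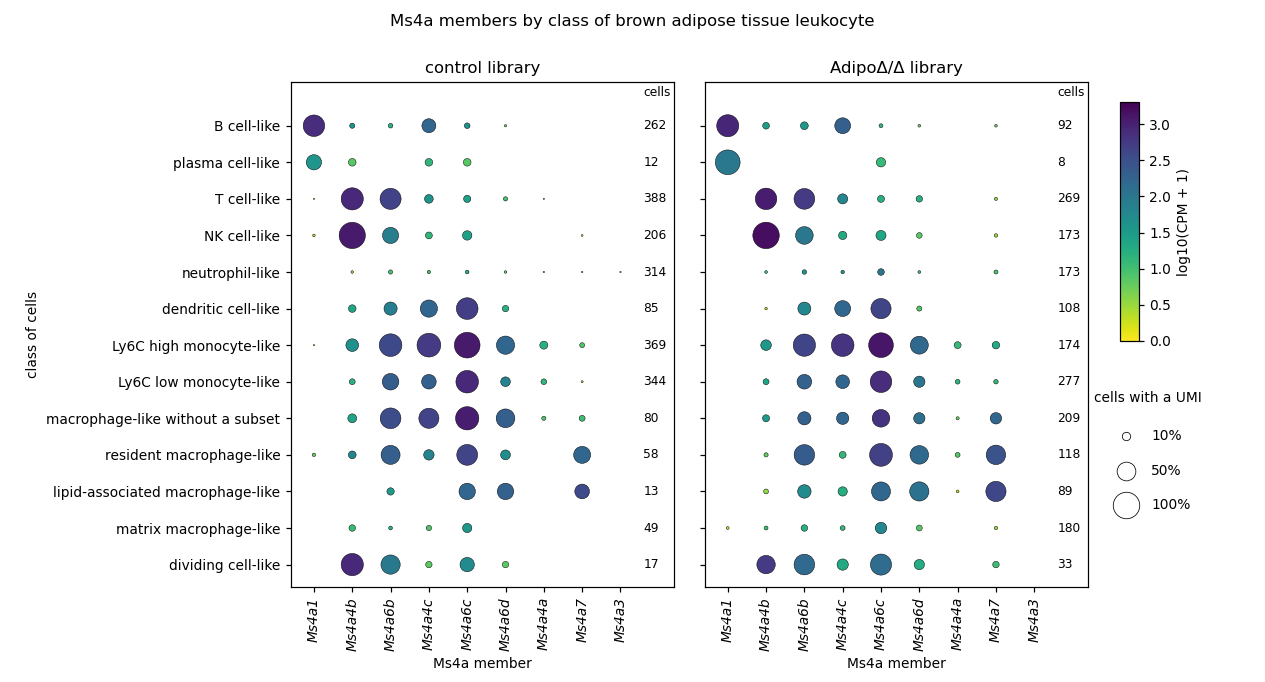
Level and spread of the 9 Ms4a members by class in the control library (left) and the AdipoΔ/Δ library (right). Circle area gives the percent of cells with a UMI, colour gives log10(CPM + 1), and the column at the right of each panel gives the number of cells. Ms4a1 stands in the B cell-like and plasma cell-like rows, Ms4a4b in T, NK and dividing cell-like rows, and the matrix macrophage-like and neutrophil-like rows are nearly empty.

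Ms4a1 was detected almost only in the B lineage. Its level in B cell-like cells was 754 CPM [684–828] in the control library and 873 CPM [759–999.6] in the AdipoΔ/Δ library, on 432 and 210 UMIs. Ms4a1 reached 66.0% [59.9–71.7] and 69.6% [59.1–78.7] of B cell-like cells, at median depths of 1803 and 2101 UMIs. In T cell-like cells, which should lack it, 0.258% of the control cells had a UMI and 0 of the 269 AdipoΔ/Δ cells did, which allows up to 1.12% (3 cells of the total), at deeper medians of 3482 and 3688 UMIs. The next class held a single UMI in the control library (resident macrophage-like, a fold of 160 [28.6–6344]) and 2 UMIs in the AdipoΔ/Δ library (matrix macrophage-like, a fold of 604 [165–5023]).

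B cell-like cells held 97.1% of all Ms4a1 UMIs of the control library and 90.1% of those of the AdipoΔ/Δ library. Plasma cell-like cells, the antibody-secreting end of the lineage, came next, with 36.9 CPM [13.5–80.3] on 12 control cells and 93.2 CPM [54.3–149] on 8 AdipoΔ/Δ cells. Outside these classes, 7 control and 6 AdipoΔ/Δ UMIs were left. They made 20.6 and 14.6 Ms4a1 UMIs per 100 UMIs of Cd79a, a chain of the B cell receptor complex, against 21.7 and 27.8 within B cell-like cells. Cd79b, another chain of that complex, was less alike. It had 111 and 97 UMIs beside these 7 and 6 of Ms4a1, and 1060 and 528 beside 432 and 210 within B cell-like cells.

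The genes with profiles most like that of Ms4a1, by Pearson's r of log2(CPM + 10) over the 20 profiles of 10 classes in 2 libraries, were Cr2 (complement receptor CD21, 0.9975), Ebf1 (a B lineage transcription factor, 0.9969) and Fcmr (the Fc receptor for IgM, 0.9965), among 9442 genes. Ebf1 and Fcmr were among the markers that named the class. Of the partner genes set beside Ms4a1, Cd22, an inhibitory receptor of B cells, stood at 222 and 254 CPM in B cell-like cells, control and AdipoΔ/Δ. Cd81, which codes for a tetraspanin, was in contrast highest in resident macrophage-like cells, at 837 and 997 CPM against 169 and 233 CPM in B cell-like cells.

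Ms4a4b belonged to NK and T cells. In NK cell-like cells its level was 1196 CPM [1139–1254] in the control library and 1533 CPM [1466–1602] in the AdipoΔ/Δ library. In T cell-like cells it was 849 CPM [805–894] and 1116 CPM [1062–1173]. The NK cell-like level was 1.41 times [1.31–1.51] the T cell-like level in the control library and 1.37 times [1.28–1.47] in the AdipoΔ/Δ library, so the order was beyond counting error and short of the 2-fold rule. T cell-like levels were in turn 13.9 times [8.09–26.1] those of the next class in the control library (resident macrophage-like) and 31.8 times [23.5–44.2] in the AdipoΔ/Δ library (Ly6C high monocyte-like).

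By cells, Ms4a4b was found in 98.5% of control and 100% of AdipoΔ/Δ NK cell-like cells and in 70.1% and 65.8% of T cell-like cells. With each cell thinned to 1000 UMIs the shares were 70.4% and 69.2% for NK and 42.6% and 41.6% for T cell-like cells, so the gap between the classes stayed at equal depth. Neutrophil-like cells, at medians of 2968.5 and 2720 UMIs, had an Ms4a4b UMI in 0.955% and 1.16% of cells before thinning. Of all Ms4a4b UMIs, 44.3% and 45.7% lay in NK cell-like and 37.2% and 36.3% in T cell-like cells.

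The T cell-like class was made of the same clusters in different proportions in the libraries. A cluster led by Dapl1 held 204 of the 388 control and 90 of the 269 AdipoΔ/Δ cells. One led by Cxcr6 held 123 and 141, and one led by Lef1 held 61 and 38. The class was therefore split by T cell genes, a choice made after seeing the data. T cell-like cells with a Cd8a or Cd8b1 and no Cd4 UMI held 974 and 1338 CPM of Ms4a4b, control and AdipoΔ/Δ, and those with Cd4 only held 760 and 1042 CPM. In the Cxcr6-led cluster, cells with a Cd3 or Trac UMI held 1327 and 1447 CPM, whereas the 40 and 29 cells without one held 56.5 CPM [22.7–116] and 23.5 CPM [2.84–84.8]. Within that cluster, Ms4a4b was thus high in the cells in which T cell receptor genes were seen. Arg1 and Gata3, from a marker list for innate lymphocytes, were also among its leading genes. Its cells without a Cd3 or Trac UMI count in the T cell-like levels above. An unnamed cluster led by Cd7 and Xcl1 held Ms4a4b at 975 and 1232 CPM, and dividing cell-like cells at 856 and 528 CPM.

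The profiles most like that of Ms4a4b were those of Sla2 (a Src-like adapter of lymphocytes, 0.969), Prkcq (protein kinase C theta, 0.962) and Sh2d1a (the adapter SAP, 0.961). Tnfrsf18, which codes for GITR, was highest in the same 2 classes among the 10 compared, at 102 and 101 CPM in NK cell-like and 75.7 and 96.8 CPM in T cell-like cells.

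Ms4a6b was shared by lymphocytes and monocytes. It was highest in T cell-like cells, at 448 CPM [417–482] and 539 CPM [501–579], and next in Ly6C high monocyte-like cells, at 374 CPM [351–399] and 413 CPM [378–451]. The T cell-like level was 1.20 times [1.09–1.32] and 1.30 times [1.16–1.46] the monocyte level. The order of the shares depended on depth. Before thinning, 63.4% and 61.3% of T cell-like and 73.2% and 70.7% of Ly6C high monocyte-like cells, which are deeper, had an Ms4a6b UMI, and at 1000 UMIs per cell the shares were 35.8% and 34.3% against 23.5% and 29.3%.

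NK cell-like cells, the highest class for Ms4a4b, held Ms4a6b at only 75.5 CPM [61.9–91.2] and 97.0 CPM [80.8–115]. Within the Cxcr6-led cluster, cells with a Cd3 or Trac UMI held 514 and 604 CPM of Ms4a6b and cells without one 16.1 and 23.5 CPM, the latter on 2 UMIs each. Macrophages held it too: resident macrophage-like cells stood at 202 CPM [146–272] and 222 CPM [189–258]. No profile followed that of Ms4a6b closely, the highest r being 0.822 for Rcbtb2, ahead of Otulinl (0.782) and the interferon-induced Epsti1 (0.768).

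**Figure D2:**
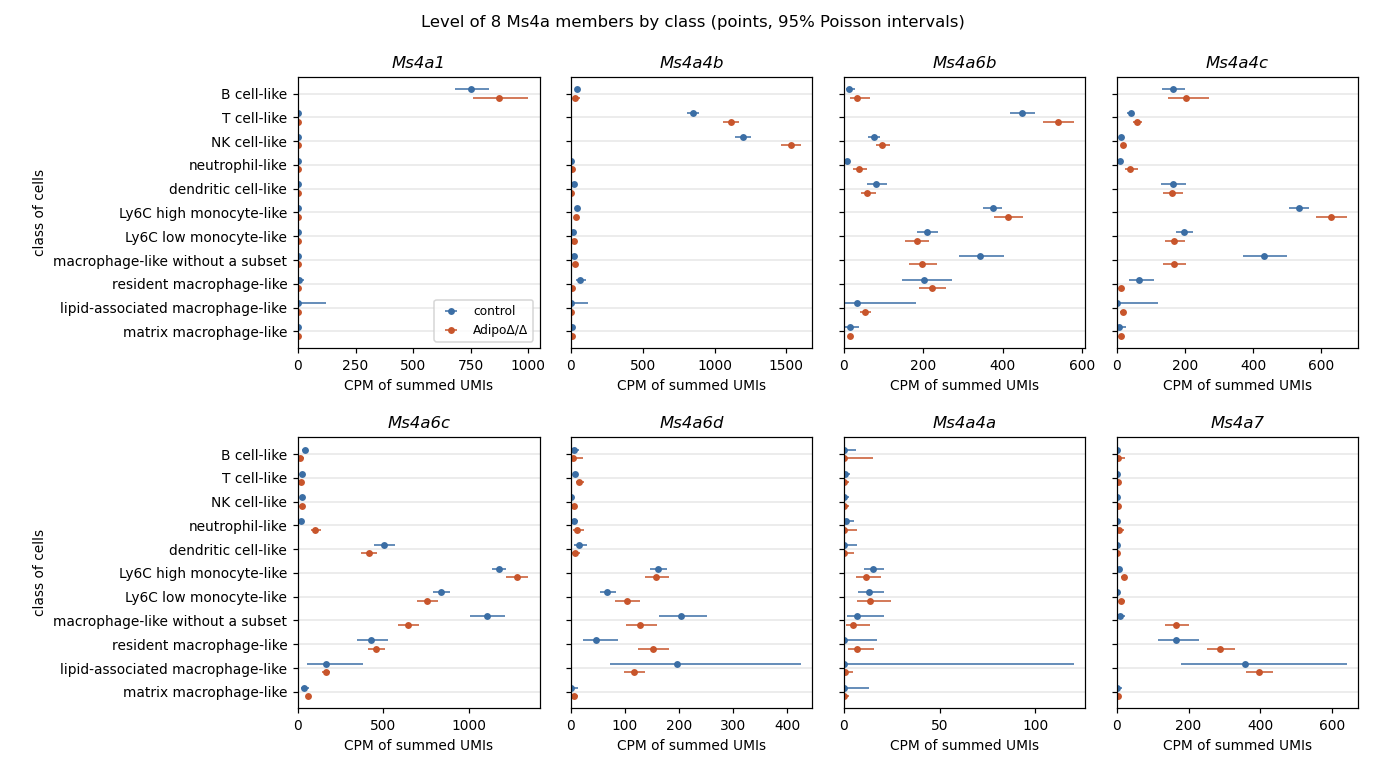
Level of 8 Ms4a members by class, in CPM of summed UMIs, for the control (blue) and AdipoΔ/Δ (orange) libraries, with bars for 95% Poisson intervals; scales differ between panels. Each of Ms4a1 and Ms4a4b falls away outside 1 or 2 lymphocyte classes, Ms4a6b is high in T cell-like and Ly6C high monocyte-like cells alike, and the wide bars of the lipid-associated control cells rest on 13 cells.

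In both libraries, Ms4a4c and Ms4a6c had their highest level in Ly6C high monocyte-like cells, named for the monocytes that blood delivers to tissues. For Ms4a6c in the control library, the lead over the next class was within counting error. Ms4a4c stood at 533 CPM [506–562] in control and 629 CPM [585–675] in AdipoΔ/Δ Ly6C high monocyte-like cells, and 80.5% and 73.0% of these cells had a UMI, against 1.59% and 1.73% of neutrophil-like cells. The next class in the control library was the macrophage-like one without a subset, at 431 CPM [370–498], a fold of 1.24 [1.06–1.45]. In the AdipoΔ/Δ library it was the B cell-like one, at 204 CPM [151–269], a fold of 3.08 [2.31–4.21]. Ms4a4c met the 2-fold rule in both libraries at a clustering resolution of 2.0 and without integration. At that resolution, 56 of the 80 control macrophage-like cells without a subset fell in an unnamed cluster, which did not compete. The control level of Ms4a4c in that cluster was 452 CPM. Without integration, no cluster was named macrophage-like without a subset, so that class did not compete.

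B cell-like cells thus carried Ms4a4c beside Ms4a1. In the control library they held 164 CPM [133–201] of Ms4a4c, with a UMI in 27.9% of cells, and dendritic cell-like cells held 163 CPM in either library. In the control order, Ly6C low monocyte-like (199 CPM), B cell-like and dendritic cell-like cells did not differ beyond counting error, the ratios of neighbours being 1.21 [0.951–1.55] and 1.00 [0.741–1.36]. T and NK cell-like cells, where the near-identical Ms4a4b was highest, held Ms4a4c at 40.6 and 60.8 CPM and at 12.7 and 19.2 CPM. Over the 20 profiles, r between Ms4a4b and Ms4a4c was -0.188. These profiles share their libraries and depths, and r is given as a description.

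Ms4a6c was high in a wider range of myeloid cells. It reached 1178 CPM [1137–1221] and 1284 CPM [1221–1349] in Ly6C high monocyte-like cells, where 94.3% and 87.4% of cells had a UMI. The macrophage-like cells without a subset stood at 1107 CPM [1009–1212] in the control library, a fold of 1.06 [0.965–1.18] that did not pass counting error, and at 645 CPM in the AdipoΔ/Δ library. Ly6C low monocyte-like cells held 840 and 756 CPM, dendritic cell-like cells 504 and 416 CPM, and resident macrophage-like cells 428 and 457 CPM. All lymphocyte classes lay at or below 40.1 CPM.

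Ms4a6d was a member of monocytes and of macrophages other than the matrix ones. Its highest control level was in macrophage-like cells without a subset (203 CPM [163–251]), not beyond counting error from Ly6C high monocyte-like cells (160 CPM [145–177]), with a ratio of 1.27 [0.993–1.60]. In the AdipoΔ/Δ library, Ly6C high monocyte-like (158 CPM), resident macrophage-like (151 CPM), macrophage-like without a subset (128 CPM) and Ly6C low monocyte-like cells (103 CPM) came in that order, and no neighbours in it differed beyond counting error. Dendritic cell-like cells, at 15.2 and 6.91 CPM, held little of it, although they held Ms4a6c.

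Among the members, Ms4a6c and Ms4a6d had the most similar profiles (r = 0.856 over 20 profiles), ahead of Ms4a6b and Ms4a6d (0.696) and of Ms4a4c and Ms4a6c (0.663). Genes outside the family came closer: Plac8, a Ly6C high monocyte marker, to Ms4a4c (0.924), the interferon-inducible Ifi211 to Ms4a6c (0.956), followed by Hpgd (0.953), a prostaglandin-degrading enzyme, and Aif1 (0.935), and Itgb5 to Ms4a6d (0.925), followed by the scavenger receptor Msr1 (0.919) and the Fc receptor Fcgr1 (0.914). After Plac8, the genes nearest to Ms4a4c were Nedd8 (0.870) and Ndufb1-ps (0.862).

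Ms4a4a, which is known from macrophages, was found at a low level in monocytes. Ly6C high monocyte-like cells held 15.2 CPM [10.8–20.7] and 11.4 CPM [6.24–19.1], on 39 and 14 UMIs, and Ly6C low monocyte-like cells 12.9 CPM [7.38–21.0] and 13.7 CPM [6.83–24.5], on 16 and 11 UMIs. The order of the pair turned between the libraries, within counting error in both. Resident macrophage-like cells held 0 UMIs in the control library, among 212568 UMIs of the class, too few to show absence at such low levels. In the AdipoΔ/Δ library they held 5 UMIs (6.64 CPM). Ly6C high monocyte-like cells there held 1.72 times [0.585–6.10] as much, within counting error. Macrophage-like cells without a subset held 7.10 and 4.73 CPM, on 3 UMIs in each library. Ms4a3 was near absent, with 1 UMI in a control neutrophil-like cell and 0 among the 11316418 UMIs of the AdipoΔ/Δ library, which allows up to 0.265 CPM (3 UMIs of the total).

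The 3 monocyte-like clusters were compared with each other for these members after seeing the data. They are the Ly6C high cluster, led by Chil3, and the 2 clusters of the Ly6C low class, led by Marcksl1 and by Cd300e. Ms4a4c had 533, 342 and 87.4 CPM across them in the control library and 629, 267 and 128 CPM in the AdipoΔ/Δ library, so that the Chil3-led cluster held 6.11 times [4.72–8.03] and 4.93 times [3.87–6.37] the level of the Cd300e-led one. Ms4a6b had 374, 298 and 142 CPM and 413, 255 and 152 CPM, with ratios of 2.64 [2.14–3.28] and 2.71 [2.16–3.45].

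The drop was shallower for Ms4a6c, which had 1178, 1040 and 686 CPM and 1284, 961 and 670 CPM (ratios of 1.72 [1.56–1.90] and 1.92 [1.71–2.15]). Ms4a6d had 160, 87.0 and 51.6 CPM in the control library. In the AdipoΔ/Δ library it had 158, 180 and 70.9 CPM, with the Marcksl1-led cluster highest. Its ratios between the ends were 3.11 [2.21–4.51] and 2.23 [1.58–3.22]. Ms4a4a alone of these 5 showed no difference between the ends beyond counting error, with ratios of 1.06 [0.519–2.38] and 0.716 [0.289–1.88].

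**Figure D3:**
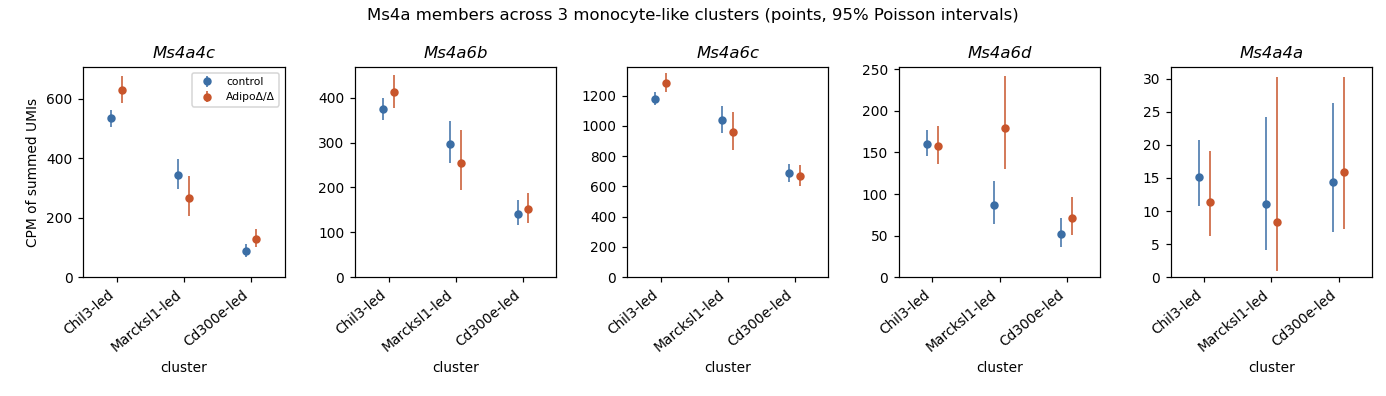
Level of 5 Ms4a members, in CPM of summed UMIs with 95% Poisson intervals, in the Chil3-led (Ly6C high), Marcksl1-led and Cd300e-led (both Ly6C low) monocyte-like clusters of the control (blue) and AdipoΔ/Δ (orange) libraries; scales differ between panels. Ms4a4c falls from 533 and 629 CPM to 87.4 and 128 CPM, Ms4a6c from 1178 and 1284 CPM to 686 and 670 CPM, and the bars of Ms4a4a overlap throughout.

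Ms4a7, which is known from tissue macrophages including those of the borders of the brain, was the macrophage member. Resident macrophage-like cells, led by Folr2 and Lyve1, held 165 CPM [115–229] in the control library and 288 CPM [251–329] in the AdipoΔ/Δ library, and 41.4% and 54.2% of them had a UMI. At 1000 UMIs per cell, the shares were 14.5% and 24.8%. The next class was macrophage-like without a subset in both libraries, at 9.46 CPM on 4 UMIs in the control library, a fold of 17.4 [6.22–67.4], and at 166 CPM on 105 UMIs in the AdipoΔ/Δ library, a fold of 1.74 [1.37–2.22]. Ms4a7 therefore met the 2-fold rule in the control library only. It met the rule in both libraries with a mitochondrial limit of 5%, with at least 500 detected genes per cell, without integration or without the 5% of cells with the most UMIs. Without integration, no cluster was named macrophage-like without a subset, so this next class did not compete there. Lipid-associated macrophage-like cells, with fewer than 20 control cells, competed in none of these settings.

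Lipid-associated macrophage-like cells, led by Gpnmb, Cd63 and Fabp5, held Ms4a7 at 358 CPM [179–641] on 11 UMIs of 13 control cells and at 396 CPM [361–434] on 466 UMIs of 89 AdipoΔ/Δ cells. Both levels lay above those of resident macrophage-like cells, at 165 and 288 CPM. The intervals of the 2 classes overlapped in the control library and did not in the AdipoΔ/Δ library. The 89 AdipoΔ/Δ cells held 54.0% of all Ms4a7 UMIs of their library. In the control library, 44.3% lay in resident macrophage-like cells. Between the libraries, 0 of 5 members tested in this class were called, where 7.18% of all genes were called higher and 11.6% lower. This count says little, because the 13 control cells gave only 30716 UMIs, at a median depth of 1348 against 12087. Ms4a4c, with 0 control UMIs, could not have been called at its AdipoΔ/Δ level. The intervals of Ms4a7 (0.613 to 2.23) and Ms4a6d (0.267 to 1.65) still held 2-fold differences. The AdipoΔ/Δ cells also carried 117 CPM of Ms4a6d and 162 CPM of Ms4a6c, and little Ms4a4c (17.0 CPM). Trem2, a lipid receptor that names this class with other genes, stood there at 423 and 1033 CPM. Among the profiles most like that of Ms4a7 over the 10 classes were those of C3ar1 (the receptor of complement C3a, 0.967) and the growth factor gene Igf1 (0.956).

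Matrix macrophage-like cells, led by Lyz1, Retnla and Ecm1, were the exception among macrophages. All 9 members together gave 68.8 CPM [41.4–107] and 107 CPM [90.4–126] there, and at 1000 UMIs per cell 91.8% and 94.2% of the cells showed no member. Of neutrophil-like cells, 97.3% and 96.8% showed none. In Ly6C high monocyte-like cells the members summed to 2314 and 2550 CPM, and 14.3% and 18.3% of thinned cells showed 3 or more members at once, whereas 63.1% and 60.5% of NK cell-like cells showed exactly 1. The low levels of the matrix class depended on the cell filter. With at most 2% mitochondrial UMIs, the study's limit, the 91 control and 122 AdipoΔ/Δ cells of that name held 757 and 352 CPM of Ms4a6c, beside the Ly6C high monocyte markers at 4903 and 2759 CPM and the matrix markers at 7641 and 19566 CPM.

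The other genes of the family filled part of that gap. Ms4a8a, which is known from alternatively activated macrophages, had 252 and 296 UMIs in all and was highest in matrix macrophage-like cells, at 94.1 and 106 CPM, ahead of Ly6C high monocyte-like cells at 65.3 and 57.1 CPM. Ms4a14 had 5 and 14 UMIs, all but 1 in macrophage-like classes. Ms4a2 had 5 UMIs in the control library, all in 1 unnamed cell beside 140 UMIs of the mast cell protease gene Cpa3, and 3 in the AdipoΔ/Δ library. Ms4a4d had 4 UMIs in each library and Ms4a15 had 5 and 0, and 0 UMIs were counted for Ms4a5, Ms4a10, Ms4a12, Ms4a13 and Ms4a18. The related Tmem176b, which codes for a cation channel of dendritic cells and macrophages, was broader, with 762 and 492 CPM in macrophage-like cells without a subset, 635 and 732 CPM in resident macrophage-like and 487 and 482 CPM in dendritic cell-like cells, and Tmem176a had its highest levels in the same 3 classes.

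The study asked how BAT leukocytes differ once adipocytes lack ATGL, and the members were next compared between the libraries within each class. A member was called when its levels differed at least 2-fold with at least 20 UMIs in both libraries together. Of 45 pairs of member and class that could be called, 6 were higher and 3 lower in the AdipoΔ/Δ library. By class, 2.9% to 11.7% of all genes were called higher and 1.13% to 4.25% lower. Of the 6 higher pairs, 3 were in neutrophil-like cells and rest mostly on few deep cells, as given below. In the class where a member was highest among those compared, its level differed by less than 2-fold between the libraries. Ratios of AdipoΔ/Δ over control were 1.16 [0.977–1.37] for Ms4a1 in B cell-like cells and 1.28 [1.20–1.37] for Ms4a4b in NK cell-like cells. The ratio was 1.20 [1.09–1.33] for Ms4a6b in T cell-like cells. In Ly6C high monocyte-like cells it was 1.18 [1.08–1.29] for Ms4a4c and 1.09 [1.02–1.16] for Ms4a6c. For Ms4a7 in resident macrophage-like cells it was 1.75 [1.22–2.58]. With at most 5% mitochondrial UMIs, Ms4a7 in resident macrophage-like cells was past 2-fold, at 134 against 287 CPM, a ratio of 2.15.

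**Figure D4:**
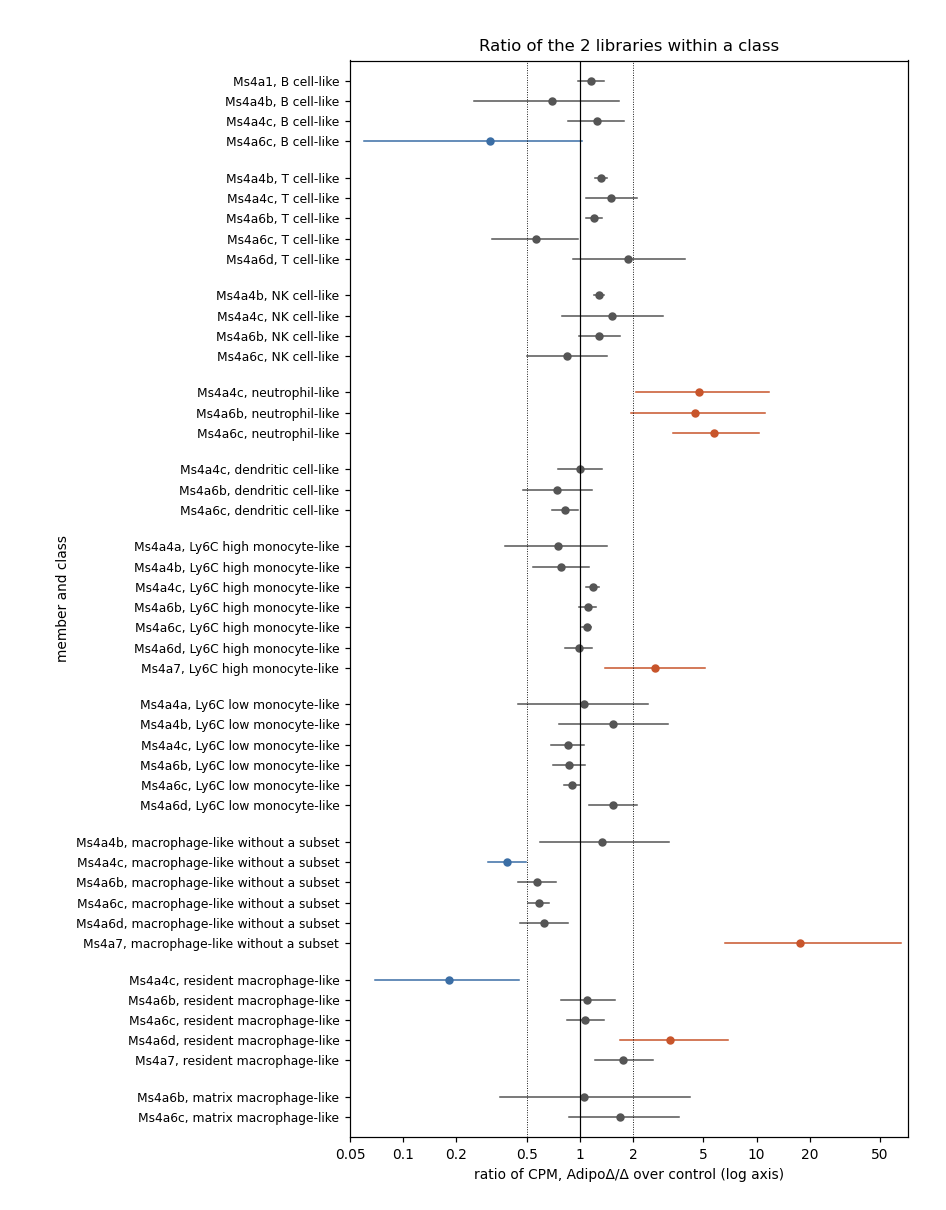
Ratio of the level in the AdipoΔ/Δ library over that in the control library for the 45 pairs of member and class with at least 20 UMIs, with 95% conditional binomial intervals, on a log axis with dotted lines at 2-fold. Orange pairs were called higher and blue pairs lower; the highest ratio is that of Ms4a7 in macrophage-like cells without a subset (17.5) and the lowest that of Ms4a4c in resident macrophage-like cells (0.181).

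Called pairs fell in 5 classes. Macrophage-like cells without a subset showed both directions, with Ms4a7 higher (9.46 against 166 CPM, a ratio of 17.5 [6.64–65.5] on 4 and 105 UMIs) and Ms4a4c lower (431 against 167 CPM, a ratio of 0.389 [0.303–0.496]). Of the 6 members tested there, 1 was called higher and 1 lower, where 11.7% and 4.25% of all genes were. Ms4a6b, Ms4a6c and Ms4a6d lay on the same side as Ms4a4c without reaching 2-fold, at 0.575 [0.449–0.736], 0.583 [0.509–0.667] and 0.628 [0.458–0.861].

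That class was not the same mixture in both libraries. Its median depth was 4224.5 UMIs in control and 1080 UMIs in AdipoΔ/Δ cells. The summed level of the 6 Ly6C high monocyte markers was 6266 against 2837 CPM, that of the 10 macrophage markers 3603 against 7186 CPM and that of the 7 lipid-associated markers 263 against 2649 CPM. At a finer resolution, 56 of its 80 control cells fell in an unnamed cluster led by Aif1, whereas 149 of its 209 AdipoΔ/Δ cells fell in a cluster led by Gdf3 and C3ar1.

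Within those finer clusters, compared after seeing the data, Ms4a7 was still higher in the AdipoΔ/Δ library. In the Aif1-led cluster it had 14.9 against 97.4 CPM, a ratio of 6.54 [2.68–19.2] on 6 and 30 UMIs. In the Gdf3-led cluster it had 0 UMIs in 20 control cells and 151 CPM in 150 AdipoΔ/Δ cells, at least 1.55-fold higher against a floor of 3 UMIs per library and with a 95% conditional lower limit of 1.19. Ms4a4c had 452 against 257 CPM in the Aif1-led cluster, a ratio of 0.568 [0.430–0.743], and 194 against 85.5 CPM in the Gdf3-led cluster, a ratio of 0.440 [0.165–1.36] that did not pass counting error.

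In resident macrophage-like cells, Ms4a6d was called higher (47.0 CPM on 10 UMIs against 151 CPM on 114, a ratio of 3.22 [1.69–6.89]) and Ms4a4c lower (65.9 CPM on 14 UMIs against 12.0 CPM on 9, a ratio of 0.181 [0.0693–0.450]). That is 1 of 5 members in each direction, where 10.7% and 2.97% of all genes were called. At 1000 UMIs per cell, the share of cells with an Ms4a6d UMI was 1.82% and 16.8%. Ms4a6b and Ms4a6c did not differ beyond counting error there, at 1.10 [0.780–1.57] and 1.07 [0.845–1.36]. Beside Ms4a4c, markers of other cells were higher in the control cells of this class: the 7 NK markers summed to 541 against 21.2 CPM, the 8 T cell markers to 75.3 against 6.64 CPM and the 7 neutrophil markers to 3406 against 303 CPM, and Ms4a4b stood at 61.2 against 5.31 CPM. The B cell markers summed to 42.3 and 21.2 CPM. The part of these RNAs in the Ms4a4c ratio, which was 0.725 in clusters made without integration, was not tested.

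In neutrophil-like cells all 3 members tested were called higher, where 11.1% of all genes were. Ms4a4c had 8.44 against 39.8 CPM (a ratio of 4.72 [2.07–11.7]), Ms4a6b 8.44 against 37.9 CPM (4.49 [1.95–11.2]) and Ms4a6c 17.8 against 102 CPM (5.74 [3.35–10.3]). These UMIs lay in few cells. The 9 AdipoΔ/Δ neutrophil-like cells with the most UMIs, set apart after seeing the data, held 21 of 21 Ms4a4c, 14 of 20 Ms4a6b and 47 of 54 Ms4a6c UMIs, and they carried the macrophage markers at 1934 against 389 CPM in the other 164 cells and the Ly6C high monocyte markers at 2195 against 383 CPM. The 16 deepest control cells held 0 UMIs of each, with the macrophage markers at 55.5 CPM, below the 1934 CPM of the AdipoΔ/Δ cells, and the Ly6C high monocyte markers at 3131 CPM, above their 2195 CPM. After thinning, 1.71% and 1.91% of neutrophil-like cells had an Ms4a6c UMI, and without the deepest 5% of cells the ratios were 0.686, 1.37 and 0.758.

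The last called pairs rest on low levels. Ms4a7 in Ly6C high monocyte-like cells had 7.38 CPM on 19 UMIs against 19.6 CPM on 24 UMIs, a ratio of 2.65 [1.39–5.12], 1 of 7 members where 3.62% of all genes were called higher and 1.67% lower. Beside it, the lipid-associated markers of these cells summed to 246 against 852 CPM and the macrophage markers to 1633 against 2314 CPM, and their part in it was not tested. The ratio was 1.33 with a mitochondrial limit of 2%, 1.28 without integration and 1.92 without the 5% of cells with the most UMIs. Ms4a6c in B cell-like cells had 40.1 CPM on 23 UMIs against 12.5 CPM on 3 UMIs, a ratio of 0.311 whose interval of 0.0597 to 1.03 holds 1, 1 of 4 members where 5.69% of all genes were called higher and 3.31% lower. Without the 5% of cells with the most UMIs it was 0.890.

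No member was called in the other classes. That is 0 of 6 tested in Ly6C low monocyte-like cells (4.73% of all genes were called higher and 1.74% lower), 0 of 4 in NK cell-like (2.9% and 1.13%), 0 of 5 in T cell-like (6.09% and 1.65%), 0 of 3 in dendritic cell-like (6.65% and 2.08%) and 0 of 2 in matrix macrophage-like cells (10.9% and 2.49%). Of the ratios there whose interval left out 1, Ms4a6c in T cell-like cells was nearest to 2-fold, at 0.565 [0.319–0.971], followed by Ms4a6d in Ly6C low monocyte-like cells, at 67.0 against 103 CPM, a ratio of 1.54 [1.12–2.11]. These counts of 0 depended on the processing. With at most 2% mitochondrial UMIs, Ms4a6c in T cell-like cells was past 2-fold (0.323), and so were 6 members in matrix macrophage-like cells: Ms4a7 was higher (5.14) and Ms4a4b (0.104), Ms4a4c (0.242), Ms4a6b (0.380), Ms4a6d (0.420) and Ms4a6c (0.464) were lower. No share of all genes past 2-fold is given at this limit, so whether 6 members is many for that class cannot be told. In that class the Ly6C high monocyte markers were then also lower and the matrix markers higher, as given above. Their part in these ratios was not tested. Ms4a6c in matrix macrophage-like cells lay on the other side, at 2.59, with a limit of 5% and at 2.24 as a mean over cells. Ms4a4c in that class was past 2-fold without integration (3.38). As a mean over cells, so were Ms4a6d (2.17) and Ms4a4b (2.15) in Ly6C low monocyte-like cells and Ms4a6d in T cell-like cells (2.03). Without the 5% of cells with the most UMIs, Ms4a6d in T cell-like cells had a ratio of 2.24.

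The median log2 ratio of the members tested stood farthest from that of all genes in neutrophil-like cells (2.24 against 0.29), which rests on the few deep cells described, and in macrophage-like cells without a subset (-0.72 against 0.08). It was 0.36 against 0.08 in NK cell-like, 0.40 against 0.21 in T cell-like and 0.41 against 0.18 in matrix macrophage-like cells. It was -0.28 against 0.11 in dendritic cell-like, -0.16 against 0.12 in B cell-like and -0.03 against 0.10 in Ly6C low monocyte-like cells. Ly6C high monocyte-like (0.12 against 0.09) and resident macrophage-like cells (0.13 against 0.17) had members and all genes nearly alike.

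Over all cells, Ms4a7 had 79 UMIs (7.35 CPM) in the control and 863 UMIs (76.3 CPM) in the AdipoΔ/Δ library, a ratio of 10.4 [8.24–13.2]. With every cluster given the mean of its 2 shares of UMIs, a calculation added after seeing the data, the ratio was 1.71. With the control levels of each cluster at the AdipoΔ/Δ makeup, Ms4a7 would stand at 50.7 CPM. Of that value 37.2 CPM comes from the 11 UMIs of the 13 lipid-associated control cells, and it is 32.1 to 80.1 CPM at the 95% limits of that count. With the lipid-associated cluster left out of both libraries, the ratio was 6.17 over all other cells and 2.84 with clusters weighted alike. Ms4a1 had 41.4 and 20.6 CPM, a ratio of 0.498 [0.423–0.584], which became 1.17 with clusters weighted alike.

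For 2 monocyte members the ratio also lay nearer 1 with clusters weighted alike. Ms4a4c had 196 and 124 CPM over all cells (0.632 [0.591–0.677]) and a ratio of 1.07 with equal weights, and Ms4a6c 472 and 330 CPM (0.700 [0.671–0.730]) and 0.989. For Ms4a6b the ratio was 0.838 [0.790–0.889] and 1.10 with equal weights, for Ms4a4a 0.570 [0.366–0.876] and 0.890, for Ms4a4b 1.08 [1.04–1.13] and 1.17, and for Ms4a6d 1.02 [0.916–1.14] and 1.06. With clusters weighted alike, 7 of the 8 members with a ratio lay between 0.890 and 1.17, and Ms4a7 lay above.

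**Figure D5:**
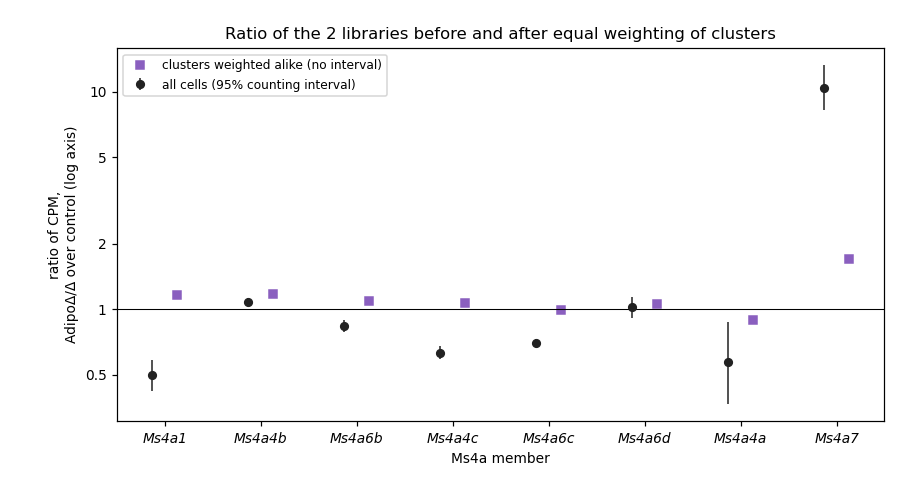
Ratio of the level in the AdipoΔ/Δ library over that in the control library for 8 Ms4a members, on a log axis, over all cells (black circles, 95% counting intervals) and with each of the 18 clusters weighted alike in both libraries (purple squares, no interval). Ms4a7 moves from 10.4 to 1.71, Ms4a1 from 0.498 to 1.17 and Ms4a4c from 0.632 to 1.07.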

How the data were processed

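Libraries were made with a 10x Genomics 3′ kit (v3.1). The authors' files hold raw UMI counts for each gene and barcode, as deposited from Cell Ranger 4.0.0 (per the file headers; build mm10). Of 2597 control and 2381 AdipoΔ/Δ barcodes, cells were taken from those in which 200 or more genes were seen and mitochondrial UMIs made up no more than 10%. The study's limit of 2%, an alternative here, passed 1336 and 898 barcodes, fewer than the cells its text states. Members and gene lists were chosen with earlier results of these data known.

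Libraries were normalized by SCTransform (0.4.2) and integrated by anchors in Seurat 5.3.0 (R 4.3.3), with 20 components, resolution 1.0 and 1990 features without Ms4a and Tmem176 genes, giving 18 clusters. A cluster took the marker list with the highest mean log2 fold over other cells when it reached 1.0, at least 3 markers were found in at least 10% of its cells, and its top 10 genes did not favour another class. These thresholds were set after seeing the scores, and 2 clusters stayed unnamed. No doublet caller was run, and an alternative left out the 5% of cells with the most UMIs per cluster. UMIs were summed per class and library, and intervals came from SciPy 1.17.1. Shares at 1000 UMIs leave out shallower cells, 0 to 51 control and 0 to 95 AdipoΔ/Δ cells per class. Named genes were the members, other Ms4a and Tmem176 genes, partner genes (Clec7a was not analysed here) and, per member, the 3 most similar genes with at least 100 UMIs, of which some are not reported here. Positions and transcripts came from GRCm38. Ratios and intervals were tested on simulated data. Other alternatives changed the cell filters, resolution, integration, scaling, UMI minimum and fold limit.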

Additional observations from a re-analysis of the deposited data

Results flagged for a closer look

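The ratio of the libraries went in opposite directions past 2-fold in different classes for 2 members, and the difference between the classes was not tested. Ms4a4c was higher in the AdipoΔ/Δ library in neutrophil-like cells (4.72) and lower in macrophage-like cells without a subset (0.389) and in resident macrophage-like cells (0.181). Ms4a6c was higher in neutrophil-like cells (5.74) and lower in B cell-like cells (0.311). In neutrophil-like cells both rest on the 9 deepest AdipoΔ/Δ cells, and in B cell-like cells Ms4a6c rests on 3 AdipoΔ/Δ UMIs.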

How the results depend on the processing

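The limits are 1 library per condition, class names that rest on marker scores, and low UMI counts behind most ratios past 2-fold. No paired analysis was possible because each condition has 1 library and no result comes from a test. Ms4a1 marked B cell-like cells under every alternative run. The number of members marking a class, 1 as reported, was 2 with at most 5% mitochondrial UMIs and with at least 500 detected genes. It was also 2 at resolution 2.0 and without the 5% of cells with the most UMIs, and 3 without integration. The added member was Ms4a7 in resident macrophage-like cells, except at resolution 2.0, where it was Ms4a4c in Ly6C high monocyte-like cells. Both were added without integration. Without integration, no cluster was named macrophage-like without a subset. At resolution 2.0, 56 of the 80 control cells of that class were in an unnamed cluster. Unnamed clusters do not compete. Neither do lipid-associated macrophage-like cells, which held more Ms4a7 than resident ones with the main settings. Shares of all genes past 2-fold are given for the main settings only. Pairs of member and class past 2-fold between the libraries, 9 as reported, were 5 without integration and 5 without the 5% of cells with the most UMIs. They were 19 with no minimum of UMIs and 19 at a fold of 1.5. At the study's mitochondrial limit of 2% they were 8, of which 0 were among the 9 reported, 5 of those 9 being in classes compared there; the 9 were shared in full with the 5% limit, 2 of them without integration and 4 without the deepest cells. With the main settings, 5 members had share and level highest in the same class in both libraries. There were 7 with at most 5% mitochondrial UMIs and 8 at the 2% limit, where only 8 classes could compete. Of the ratios in neutrophil-like cells, that of Ms4a4c turned below 1 at that limit (0.645), without integration (0.483), as a mean over cells (0.859) and without the 5% of cells with the most UMIs (0.686), that of Ms4a6b at the 2% limit (0.753) and that of Ms4a6c without the deepest cells (0.758). The all-cell ratios of Ms4a1, Ms4a4c and Ms4a6b turned above 1 with clusters weighted alike (1.17, 1.07 and 1.10). The cause of these turns was not tested. With the same weights, the ratios of Ms4a6c (0.989) and Ms4a4a (0.890) stayed below 1. Ms4a7 in macrophage-like cells without a subset ranged from 6.89 to 31.3 under the cell filters and scalings that gave a value, and was at least 1.55 at resolution 2.0, where the control cells held 0 UMIs. Ms4a6d in resident macrophage-like cells ranged from 2.12 to 3.90. Some classes had no value at the 2% limit or without integration.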
